A study of Mus musculus with 3 samples.

Results

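Bound-negative regions were stretches of tiled autosomal DNA in mouse frontal cortex in which at least 50% of the array probes gave a measurable input signal but no bound signal well above background after immunoprecipitation of methylated DNA. Of 23966 tiled regions with 8 or more probes on chromosomes 1 to 19, 36 (0.15%) met this rule. A tiled region was a run of probes whose mm9 starts lay at most 500 bp apart. A bound-negative probe was one whose input (Cy3) signal carried the scanner software's flag for well above background on all 3 arrays and whose bound (Cy5) signal carried it on none of them. The 36 regions held 415 probes, of which 216 (52.0%) were bound-negative, against 6.85% of the probes in the other 23930 regions. These flags chose the regions, so the levels below describe the regions and test nothing about them.

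There was 1 group of 3 arrays. Each array compared bound DNA with input DNA of 1 pool of frontal cortex DNA from 3 naive male C57BL/6 mice of 2 months, captured with an antibody against 5-methylcytosine that the labels describe as blind to hydroxymethylcytosine. No treatment, mutation or second tissue was compared, the DNA came from whole tissue with all its cell types, and both fractions were amplified across the whole genome before labelling. Bound DNA was always Cy5 and input always Cy3, so dye and fraction cannot be told apart. The sample descriptions give every array the same replicate number, so errors are spreads between arrays, and may be technical.

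In this assay an antibody pulls down fragments that carry methylated cytosines, which in adult mammalian tissue lie mostly in CpG pairs. DNA with few CpGs and DNA whose CpGs are unmethylated both leave little in the bound fraction. CpG-rich promoters of active genes are the best known unmethylated sequences of this kind, while most of the remaining genome is methylated. The files place probes on mm9 without gene names or sequence, and the annotation at hand is of another build, so genes and CpG content at these regions were not analysed here.

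The measured levels fitted neither a bright input nor an absence of bound DNA. Median bound signal per region was 172, 172 and 223 units in bound-negative regions on replicates 1, 2 and 3 (median of 36 regions), against 512, 356 and 437 units in the other regions. Median input signal was 592, 562 and 572 units in bound-negative regions, against 760, 588 and 636 units in the other regions. The bound signal was thus lower on each array, and the input was also no brighter than elsewhere, with 34.4%, 47.4% and 43.5% of the other regions below the bound-negative median. When a bound-negative probe also had to exceed the array's median input signal, 0 regions met the rule.

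**Figure D1:**
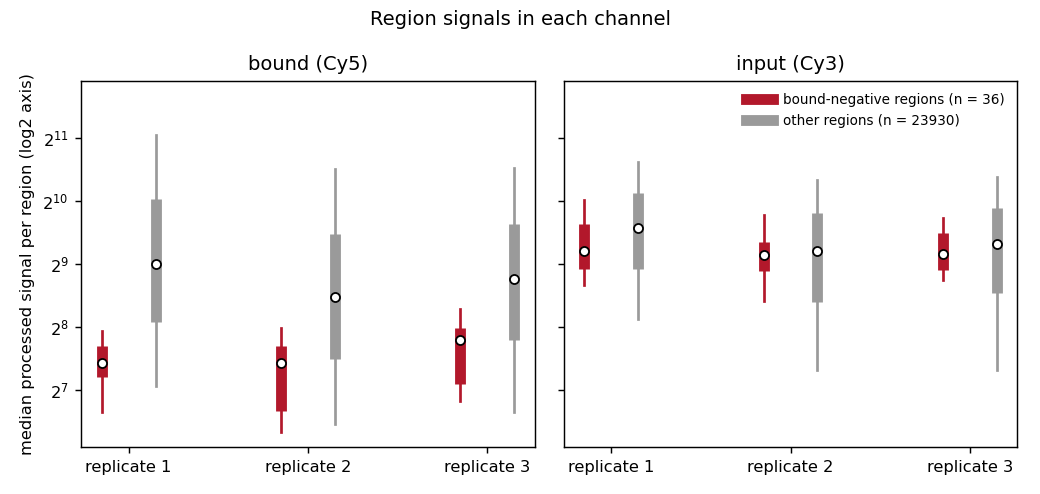
Median processed signal per region (log2 axis) in the bound and input channels of each array, with the median (white point), middle 50% (thick bar) and 10th to 90th percentile (thin line) over 36 bound-negative and 23930 other regions. The bound-negative regions sit low in the bound channel and within the range of the other regions in the input channel.

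Input at the 216 bound-negative probes was below the array's median in 134 (62.0%), 93 (43.1%) and 107 (49.5%) on the 3 arrays, so it was near the middle of all probes. Among probes with measurable input, however, the bound-negative share was highest where input was dimmest. Over all probes with input above background on each array, 29.2% were bound-negative in the dimmest of 5 equal input classes (240 to 576 units), 14.8% in the next, then 6.4%, 1.75% and 0.13% in the brightest. Within the 36 regions the same classes gave 103 of 116 probes (88.8%), 74 of 106 (69.8%), 34 of 58 (58.6%), 4 of 29 (13.8%) and 1 of 24 (4.2%). Probes of the 2 dimmest classes made up 34.8% and 31.8% of the measured-input probes in these regions. The part of dim input in the choice of regions was not tested beyond these counts.

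**Figure D2:**
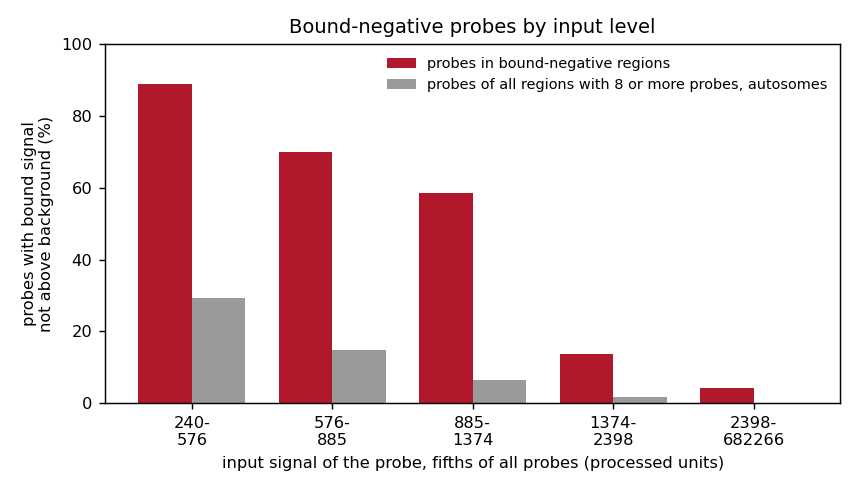
Percentage of probes with bound signal not above background, in 5 equal classes of input signal (processed units), for probes in bound-negative regions and for probes of all autosomal regions with 8 or more probes. Both fall with input, to 4.2% and 0.13% in the brightest class.

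A signal that misses the flag is not a signal of 0. The lowest bound signals that carried the flag were 255.3, 393.2 and 394.7 units on the 3 arrays, and the lowest flagged input signals 175.4, 247.4 and 268.2 units. The bound channel therefore needed a higher reading to count. On the scanner's laxer flag, for a positive signal significantly different from background, 118 of the 216 bound-negative probes (54.6%) were positive in the bound channel on all 3 arrays and only 5 (2.3%) on none. In the other regions these shares were 54.0% and 2.0%. With the laxer flag in place of the strict one, 0 regions met the rule.

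The log2 ratio of bound over input at these probes was read as an upper limit, with each bound signal raised to the lowest flagged value of its array where it lay below it. On this reading, bound-negative probes in the 36 regions averaged -0.68 ± 0.34 relative to the array's median probe (SD, n = 3 arrays). Bound over input there lay at least 1.6-fold below it. Bound-negative probes of the other regions had nearly the same limit, -0.59 ± 0.41 or 1.51-fold. The signals as processed gave -1.94 ± 0.20 at the bound-negative probes of the 36 regions and -1.81 ± 0.18 at those of the other regions. Per region, the limit as a mean over the 3 arrays was 1.59-fold at the median, and it reached 2-fold or more in 4 regions.

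The firmest of these limits was at chromosome 15 from 55138098 to 55139496. Its 7 bound-negative probes had median bound signals of 180, 169 and 218 units, against input signals of 1010, 945 and 952 units. Bound over input was at least 3.21-fold below the median probe as a mean over the arrays (-1.68 ± 0.49). The 3 brightest of its probes, next to each other between 210 and 49 bp below the midpoint, had input signals of 2957, 2725 and 2468 units on replicate 1, where their bound signals were 180, 103 and 248 units.

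The other mean limits of at least 2-fold were at chromosome 9 from 119231332 to 119232657 (2.27-fold, -1.18 ± 0.12) and chromosome 17 from 56395006 to 56396409 (2.16-fold, -1.11 ± 0.46). Chromosome 7 from 28771376 to 28771967 followed (2.05-fold, -1.03 ± 0.64). These are means over 3 arrays, and in the last 2 regions the spread left at least 1 array short of 2-fold. The chromosome 9 region was 1 of the 3 with 9 or more bound-negative probes, and its bound medians of 165, 155 and 229 units stood against input medians of 587, 963 and 867 units. At the opposite end, the chromosome 10 region from 75384151 to 75384984 had input medians of only 267, 293 and 375 units at its 6 bound-negative probes, with bound medians of 192, 127 and 200 units. Its limit lay above the median probe, at 0.24 ± 0.24, so the limit at these probes gave no fold. The mean over all 10 probes of that region was -0.95 ± 0.27.

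Whole-region means, with all probes included, were low on each array. They averaged -1.47, -1.34 and -1.13 in bound-negative regions on replicates 1, 2 and 3 (-1.31 ± 0.17), against -0.07, -0.07 and -0.10 in the other regions (-0.08 ± 0.02). All 36 means were below 0 on all 3 arrays, and 30 were at -1 or lower. The medians of the other regions were also below 0, at -0.14, -0.11 and -0.13. In limma's fit against the array median, 35 of the 36 were lower at an adjusted p under 0.05, where 38.1% of all 28880 regions tested were lower. The rule used the same signals, so that count describes the choice. The size of the mean depended on the background correction, as it was -0.35 with normexp, a model-based correction of the spot medians.

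The 36 regions lay on 14 of the 19 autosomes. Chromosomes 7 and 8 had 5 each, chromosome 1 had 4, and chromosomes 2, 9, 10 and 17 had 3 each. Chromosomes 3, 4 and 15 had 2 each, and chromosomes 5, 6, 11 and 13 had 1. Chromosomes 12, 14, 16, 18 and 19 had 0, out of 780, 899, 797, 621 and 743 eligible regions. Relative to its number of regions, chromosome 8 had the highest share, at 0.44% of 1136. The share of single probes that were bound-negative varied far less, between 6.2% on chromosome 14 and 7.65% on chromosome 13, and was 7.33% on chromosome 8. With counts of 5 or fewer, chromosomes cannot be ordered from these data.

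So few regions met the rule that their spacing says little about clustering. Of the 72 nearest tiled regions with 8 or more probes on either side, 0 were bound-negative, as compared with 0.15% of neighbours of all regions. None of the 36 had another within 100 kb, although 32 of them had some other tiled region in that span, and 2 had another within 1000 kb. Bound-negative regions made up 2 of the 1591 other regions within 1000 kb and 10 of the 4819 within 5000 kb, where 7 of the 36 had another. The 2 within 1000 kb of each other were the chromosome 8 regions from 72345740 to 72346638 and from 73300434 to 73301356, which lay 953795 bp apart. The median distance to the nearest other bound-negative region on the same chromosome was 17127915 bp, and 4 regions were alone on theirs. Among the neighbours, 7.8% of probes per region were bound-negative on average, against 6.61% for the neighbours of all regions. No bound-negative probe was found in 37 of the 72 neighbours (51.4%), against 50.4% for all regions, and 7 of the 72 (9.72%) had a share of 25% or more, against 5.28%.

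On chromosome 1 the regions ran from 72352819 to 72354174, from 78485277 to 78486193, from 88422106 to 88423525 and from 136390110 to 136391411. Chromosome 2 held those from 118686993 to 118687899, from 152560836 to 152562197 and from 180720023 to 180721405. On chromosome 3 they were at 116296832 to 116298078 and 118135541 to 118137862, and on chromosome 4 at 19497130 to 19498132 and 41687979 to 41689363. Chromosome 5 had 115934094 to 115935018 and chromosome 6 had 54942741 to 54943452. Those on chromosome 7 were 4453196 to 4453955, 13506977 to 13507949, 16704083 to 16705391, 28771376 to 28771967 and 134592308 to 134593669. The remaining chromosome 8 regions were 3675508 to 3676498, 47237890 to 47238543 and 74998951 to 74999543. Chromosome 9 had 65732648 to 65733452 and 113701431 to 113702731 beside the one named above, and chromosome 10 had 7386666 to 7387483 and 110734507 to 110735913. The others were 6962308 to 6963334 on chromosome 11, 21812831 to 21814385 on chromosome 13 and 77337701 to 77338819 on chromosome 15. Chromosome 17 had 25910285 to 25910908 and 33897065 to 33897861.

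Bound-negative regions were short. Their median length was 1015 bp (592 to 2322 bp) with a median of 11 probes, against 1361 bp and 15 probes in the other regions. Of the 36, 17 were under 1000 bp, which was true of 9.0% of the other regions. The share of regions that met the rule was 0.737% for 8 or 9 probes, 0.19% for 10 to 12, 0.14% for 13 to 15, 0.031% for 16 to 19 and 0.032% for 20 or more. The share of single probes that were bound-negative did not fall over the same classes (5.72%, 6.09%, 6.2%, 6.56% and 9.01%). Probe spacing was alike, with a median of 84.5 bp between starts in bound-negative regions and 84.0 bp in the others. Median probe length was 51.5 nt in bound-negative regions and 51.0 nt in the others.

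Some lay close to other tiled probes. In 11 of 36 (30.6%) another tiled piece or single probe lay within 1000 bp, against 7.4% of the other regions. These 11 had a median length of 797 bp, and the remaining 25 of 1302 bp. The 11 adjoining pieces held 65 probes, 6 of them bound-negative (9.2%), and 9 of the 11 had a mean ratio below 0. The one next to the chromosome 8 region from 47237890 to 47238543 was at -1.34 ± 0.17 over 13 probes, and the one beyond the chromosome 8 region from 74998951 to 74999543 at -1.73 ± 0.07 over 3 probes. With a gap of up to 1000 bp allowed, so that such pieces join, 30 regions met the rule and 28 of the 36 overlapped one of them.

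Within a region, bound-negative probes mostly formed several short runs. The 36 regions had 100 runs, of which 38 were single probes. In 5 regions the bound-negative probes formed 1 run, in 9 they formed 2, in 14 they formed 3 and in 8 they formed 4 or more. The longest run was of 6 probes, and the median of the longest run was 3 probes or 221 bp per region. In 14 regions it was of 4 or more probes. A break in a run need not mean bound signal. Of the probes outside the runs, 28 were above background in neither channel on any array. Another 45 had no bound signal above background on any array and missed only the input flag on some array. After a bound-negative probe the next one was bound-negative in 57.7% of cases in these regions, and after any other probe in 49.4%. In the other regions these shares were 20.1% and 5.99%. The rule sets the overall share of bound-negative probes in the 36 regions, so the 2 pairs of shares cannot be compared.

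**Figure D3:**
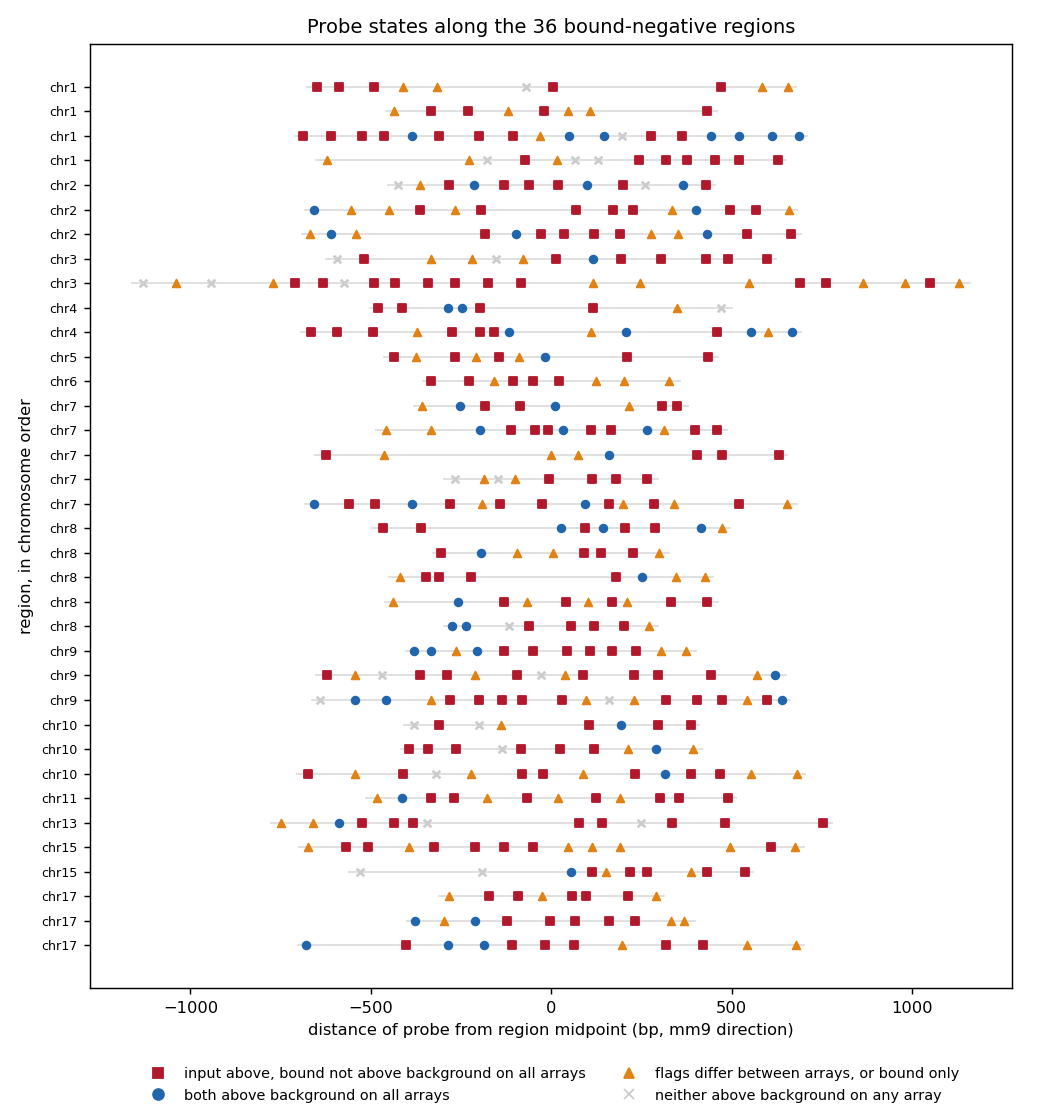
Position of each of the 415 probes in the 36 bound-negative regions as distance from the region's midpoint (bp), with the symbol showing the background flags of both channels. Bound-negative probes (red squares) are interleaved with probes above background in both channels (blue) and with probes whose flags differ between arrays (orange). Probes above background in neither channel (grey crosses) also break the runs.

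The share was higher in the middle of a region when its probes were grouped coarsely. With each region's probes split along it into 3 equal parts, 86 of 135 (63.7%) were bound-negative in the middle part, against 130 of 280 (46.4%) in the outer parts. The order was the same in the other regions, at 7.89% and 6.32%. By distance, the share was 57.3% of 150 probes within 200 bp of the midpoint, 52.4% of 187 between 200 and 500 bp and 41.0% of 78 beyond 500 bp. In the other regions these shares were 7.63%, 6.81% and 6.28%. Steps of 100 bp did not keep the order. In bound-negative regions the share was 59.2% of 71 probes within 100 bp of the midpoint, 47.1% of 70 from 200 to 300 bp and 63.0% of 54 from 400 to 500 bp. In the other regions it was 7.7% within 100 bp, 5.47% from 600 to 700 bp and 8.01% from 700 to 800 bp. At the outermost probes the share was 12 of 36 at the end with the lowest coordinate and 15 of 36 at the other. The end probes of the other regions were also low, at 4.98% and 4.78%, against 6.85% of all their probes. Counting by position, 13 regions had more bound-negative probes on the low-coordinate side, 19 on the high-coordinate side and 4 equally many. A ratio of 3 to 1 or more between the sides was found in 16 regions. The midpoint lay inside the longest run in 11 of 36.

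The log2 ratio itself did not follow that order as clearly. In the 17 regions with at least 2 probes in each part, the centre differed from the edges by -0.24, -0.10 and 0.04 on the 3 arrays (-0.10 ± 0.14), which is within the spread between arrays. Over all 21320 regions that allowed this measure, the mean difference was -0.23, so the centre was not lower in the 17 than in regions in general. By limma's fit per region, 6 of the 17 had a lower centre and 2 a higher one at an adjusted p under 0.05, where 32.5% and 17% of 21320 regions were called. Taken as the middle part of the probes against the outer parts, which all 36 allow, the difference was -0.70, -0.36 and -0.27 (-0.45 ± 0.23). Over all 24979 regions that allowed it, the mean difference was -0.17. On that measure limma called 17 of the 36 lower in the middle part and 2 higher, where 29.4% and 15.4% of all were called.

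The remaining probes were of 3 kinds. In 58 of 415 probes (14.0%) both channels were above background on all arrays, against 42.8% in the other regions. Neither channel was above background on any array in 28 probes (6.7%), against 13.7%. The flags of the remaining 113 (27.2%) varied between arrays or had another combination, against 36.7%. The 58 probes with both signals averaged -0.05 ± 0.06 in bound-negative regions, against 0.37 ± 0.13 for such probes in the other regions. Their median bound signals were 1099, 993 and 1244 units and their median input signals 1595, 1836 and 1807 units, so the input was brighter there than at the bound-negative probes. Their median length was 45 nt, and 63.8% were of this shortest length, against 31.0% of the bound-negative probes. Both contrasts were also present in the other regions. There, 49.6% of the probes with both signals were 45 nt long, against 25.8% of the bound-negative probes. Median input there was 1666, 1487 and 1558 units, against 606, 520 and 520 units.

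Of the 28 regions with such probes, 12 had a mean ratio above 0 over them. The clearest case was chromosome 1 from 88422106 to 88423525, 18 probes over 1420 bp. At its low-coordinate end 4 adjacent probes over 273 bp were bound-negative, with replicate 1 bound signals of 52, 51, 170 and 188 units against input signals of 312, 427, 301 and 413 units. The readings of 52 and 51 units lie at the bottom of that array's scale. At the other end, the last 4 probes had replicate 1 bound signals of 16648, 128817, 18763 and 13341 units against input signals of 3685, 22759, 1901 and 2540 units. The log2 ratio at the last probe was 2.59, 2.49 and 2.27 on the 3 arrays, and at the first probe -2.40, -1.77 and -1.26. Between them the states alternated.

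Over its 7 probes with both signals, that region averaged 1.95, 1.86 and 1.53 (1.78 ± 0.22), and its whole-region mean of -0.25 ± 0.20 was the highest of the 36 and the only one that limma did not call lower. With normexp, 1 of the 36 regions was called higher and 33 lower, where 27.9% and 36.4% of all 28880 regions were called.

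**Figure D4:**
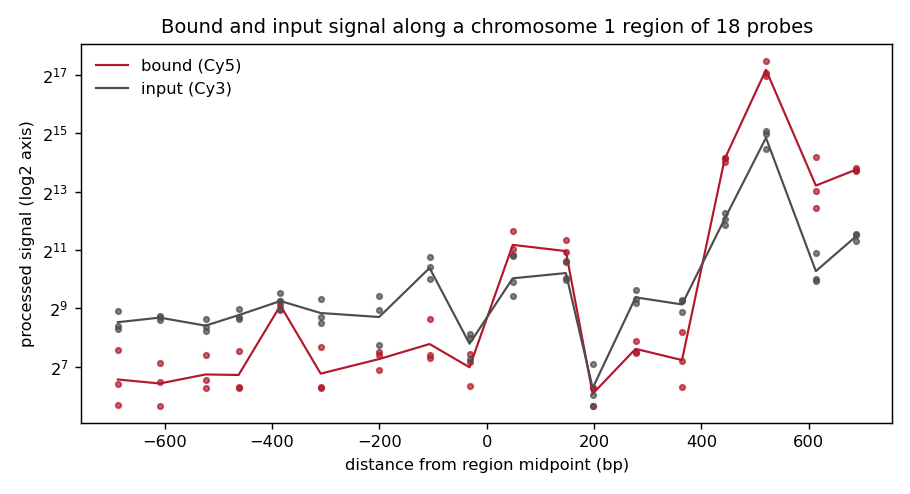
Bound and input processed signal (log2 axis) at the 18 probes of the chromosome 1 region from 88422106 to 88423525, with points for each array and lines for their geometric mean. Bound signal lies below input at the left end and above it at the last 4 probes.

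A similar change occurred on chromosome 8 from 74998951 to 74999543. Its first 2 probes, at the low-coordinate end, had log2 ratios of 2.60, 1.76 and 2.23 and of 1.74, 1.51 and 0.99 on the 3 arrays. After 1 probe dark in both channels, 4 bound-negative probes followed over 311 bp, and their ratios ran from -2.92 to -0.34. On chromosome 17, from 33897065 to 33897861, the 2 probes with both signals averaged 0.56, and 5 bound-negative probes formed 1 run of 405 bp. The next values over at least 2 such probes were 0.34 at the chromosome 9 region from 119231332 and 0.12 at the chromosome 7 region from 13506977.

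The highest shares of bound-negative probes were in regions of 8 to 13 probes. The region on chromosome 17 from 25910285 to 25910908 had 5 of 8 (62.5%), with whole-region ratios of -1.96, -2.44 and -1.69 (-2.03 ± 0.38), the lowest mean of the 36. Its other 3 probes had input above background on all arrays but changed in the bound channel, and none was above background there on all 3 arrays. Chromosome 13 from 21812831 to 21814385 had 8 of 13 (61.5%), at -2.04, -1.35 and -1.33. The chromosome 10 region from 75384151, with 6 of 10 (60%), came next. Chromosome 11 from 6962308 to 6963334 had 7 of 12 (58.3%), at -1.36, -1.18 and -1.25. Regions with 5 of 9 were on chromosomes 5, 6 and 8 (115934094, 54942741 and 3675508 as starts), with means of -1.91, -1.82 and -1.34.

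By number and by length the leading region was chromosome 3 from 118135541 to 118137862. It had 11 bound-negative probes among 22 over 2322 bp, with a run of 6 over 461 bp, and 0 probes above background in both channels. Its whole-region ratio was -1.59, -1.19 and -0.92 on the 3 arrays. Bound medians at the bound-negative probes were 133, 106 and 170 units, against input medians of 552, 555 and 632 units.

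The threshold lay near the highest shares found. No bound-negative probe was found in 12091 regions (50.5%), and the highest share of any region was 62.5%. Of the 36, 24 were at exactly 50% and 12 above it, and 107 further regions were 1 bound-negative probe short. Just outside were chromosome 10 from 84590564 to 84591910 and chromosome 12 from 25780835 to 25782097, each with 8 of 17 probes (47.1%), and chromosome 9 from 106784398 to 106785771 with 7 of 15 (46.7%). Their mean ratios were -1.69, -1.15 and -1.44, within the range of the 36.

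The arrays were not equally sensitive. Replicate 1 had more probes above background than replicates 2 and 3 in the bound channel (65.9%, 47.3% and 51.0%) and in the input channel (83.3%, 69.0% and 69.3%). Taken alone, they gave 1065, 1748 and 812 regions that met the share of 50%. On each array separately, with probes free to differ, 180 regions met it, against 36 when the same probes had to be bound-negative on all 3. Median shares in the 36 regions were 65.5%, 66.7% and 61.5% on single arrays.

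Regions chosen on only 2 arrays could be read on the array that the choice did not use. Without replicate 1, 301 regions were chosen, and on replicate 1 their bound-negative probes stayed below the bound flag in 59.0% of those with input above background, against 22.1% of all such probes in eligible regions. Without replicate 2, 55 were chosen and the shares on it were 96.4% and 33.2%. Without replicate 3, 123 were chosen, with 87.7% and 28.1%. The chosen probes and all probes were not matched for input signal, with which the bound-negative share fell. The part of input level in these differences was not tested. Mean region ratios on the array left out were -1.27, -1.31 and -1.05 in the chosen regions, against -0.06, -0.07 and -0.09 in the other regions. They were below 0 in 299 of 301, 55 of 55 and 123 of 123 regions. An exact two-sided sign-flip test over 3 arrays cannot give a p below 0.25, so no test is given.

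**Figure D5:**
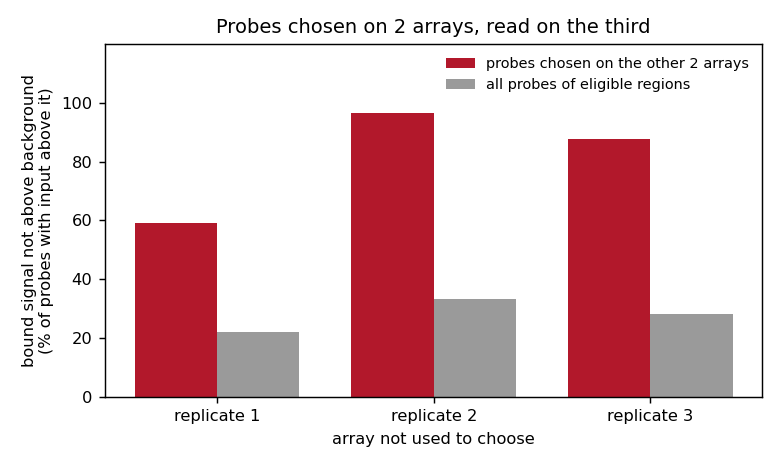
Percentage of probes with bound signal not above background, among those with input above background, on the array not used for choosing. Probes chosen on the other 2 arrays reach 59.0%, 96.4% and 87.7%, above all probes of eligible regions at 22.1%, 33.2% and 28.1%. The sets were not matched for input signal.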

How the data were processed

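Methylated DNA of pooled frontal cortex was measured on 3 two-colour arrays with 420288 spots, 4474 of them controls. The labels do not settle whether each array had a pool of its own. Per the file headers, the deposited intensity values came from Agilent Feature Extraction 10.7.3.1 on a design placed on mm9, and the headers list background subtraction, spatial detrending and 1 linear dye factor per channel. The deposited series matrix holds values used as log2 ratios, with medians of -0.974, -0.975 and -0.974 and nearly equal distributions over the 3 arrays. Their normalization by the authors remains unknown. They served as an alternative.

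The 6208 probes spotted more than once counted as bound-negative where all their spots were. Log2 of bound over input processed signal was centred on each array's median probe, without loess, and averaged over probes of a region. limma 3.58.1 (R 4.3.3) tested 28880 regions of at least 3 probes against 0, with Benjamini-Hochberg adjustment, and was tested on simulated data. Normexp (offset 50) used spot medians, because no spot mean is listed. Named regions were those with the highest shares, the most probes, the greatest length, the highest ratio at probes with both signals, and those nearest the threshold. Regions named for the size of their limit were chosen after their values were seen. Regions and rules were chosen with earlier results of these data known. Alternatives covered the share, gap, probe minimum, flag, arrays, background correction, normalization and zero point. The number of arrays limits the precision. Each array was on a slide of its own, so no slide effect could be separated.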

Additional observations from a re-analysis of the deposited data

How the results depend on the processing

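The number of regions depended on nearly every part of the rule. It was 161 with a share of 40%, 3 with 60% and 0 with 75%, and 62 with 5 or more probes and 18 with 12 or more. It was 836 where the flags had to hold on at least 2 of 3 arrays, and 55 to 301 with 1 array left out, highest without replicate 1. The laxer flag gave 0, and so did input above the array median. A rule chosen after seeing the data, a share of 50% on each array with probes free to differ, gave 180. A gap of 300 bp gave 51, overlapping 29 of the 36, and removal of outlier spots left 36. The mean log2 ratio of -1.31 stayed negative: loess gave -0.897, normexp -0.346, the deposited series matrix -0.964, centring on the mode -2.033 and input above background only -1.571. The count of the 36 regions called lower stayed between 33 and 36. Of all regions tested, 31% (loess) to 77% (centred on the mode) were called lower under the same settings. The rule used the same signals, so these counts describe the choice. Centre minus edges was -0.445 with the probes split into 3 parts. The excess of bound-negative probes at the centre over the edges, 16.3 percentage points, was 9.7 to 12.6 for regions chosen without 1 array. The causes of these shifts were not tested. Neighbouring regions were also bound-negative in 0% to 1.82% of cases over the alternatives run. Without replicate 2 it was 2 of 110, against 0.229% for all regions, and without replicate 1 it was 10 of 601 (1.66%), against 1.26%. Each adjacent pair was counted from both sides, so the 2 of 110 were the same pair and give no measure of clustering. A share of 75% and the laxer flag left no region for position or neighbours. No paired analysis was possible because there is 1 group, and bound and input are already paired within an array.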

Other observations

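Outside the rule, 3 of 1000 tiled regions with 8 or more probes on the X chromosome (0.3%) reached the share of 50%, and 0 of 13 on the Y. The X regions ran from 7829268 to 7830182 (5 of 10 probes, mean log2 ratio -0.97 ± 0.30), from 98834217 to 98835596 (10 of 19, -1.39 ± 0.18) and from 103222204 to 103222872 (5 of 8, -1.39 ± 0.35). Autosomal regions of 3 to 7 probes reached it in 57 of 3709 cases (1.54%).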
